A study of Mus musculus with 6 samples.

Results

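Axon guidance genes encode the secreted and membrane-bound cues, and the receptors that read them, by which growing axons and migrating cells are attracted or repelled. They were taken here as the genes, listed in all 6 deposited tables, whose symbols begin with Epha, Ephb, Efna, Efnb, Sema, Plxn, Slit, Robo or Unc5 followed by a digit or by a letter and a digit, together with Nrp1, Nrp2, Ntn1, Ntn4 and Dcc, and without Slitrk genes. This gave 67 of 30631 genes, of which 63 encode guidance ligands or receptors. Read by the letter, the rule also took in 3 antisense genes named for Plxna4 and Unc50, which encodes a Golgi protein, and it left out the netrin receptor genes Unc5a to Unc5d, whose values are given beside the others. The cells were mouse embryonic stem cells differentiated in hanging drops toward cardiomyocytes of the sinoatrial node, the pacemaker of the heart, and sorted for the surface protein CD166 at stage 7+1 days. RNA was sequenced on an Illumina HiSeq instrument from 500 ng per sample in 3 libraries labelled wild type and 3 labelled Shox2-/-, a knockout of a homeodomain transcription factor needed for sinoatrial node development. No other allele or agent is named, and how the knockout was made is not stated. The 3 knockout titles share the prefix J2 and the 3 wild-type titles carry different prefixes, so that the effect of the genotype and that of the clone cannot be told apart. Nothing in the labels says that the samples of a group were separate cultures, and the p-values then cover only sample-to-sample spread, which may be technical.

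Ephrins are membrane-anchored ligands of the Eph receptor tyrosine kinases, secreted Slit proteins are read by Robo receptors, netrins by Dcc and Unc5 receptors, and semaphorins by plexins, with neuropilins as co-receptors of the secreted class. The same systems act outside the nervous system: they shape blood vessels, separate arterial from venous cells, guide neural crest cells into the outflow tract of the heart, and direct the growth of the autonomic nerves that reach the sinoatrial node.

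The libraries held 13504683 to 34650564 reads in genes, and values are normalized counts, the reads of a gene divided by 1 factor per library. Reads of Shox2 were higher in the libraries labelled knockout (200.7 to 547.9 normalized counts) than in those labelled wild type (31.4 to 89.6), so every direction given here is a direction between labels. Pacemaker markers were detected in every library, with 1038 to 1491 normalized counts per kilobase summed over 10 genes that include Hcn4, Tbx3 and Isl1. A list of 10 mesenchyme genes, among them collagen genes, summed to 22340 to 68890 per kilobase. The mesenchyme sum was thus far above the pacemaker sum in all 6 libraries, with Col3a1 its largest part (a mean of 19834 per kilobase). This did not hold for every gene. Dpt (15.0) and Prrx1 (211.8) of the mesenchyme list lay below Gjc1 (529.9) of the pacemaker list. In bulk RNA, fewer cells of a type and less RNA per cell cannot be told apart.

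The guidance genes spanned a wide range of levels. Nrp1, the co-receptor that binds Sema3a and vascular endothelial growth factor, was highest, at a mean of 3258 normalized counts per kilobase of exon. Epha4 followed at 1357, Plxnb2 at 1141 and the ligand gene Efnb1 at 1006 per kilobase. In all, 29 of the 67 genes lay at or above 100 per kilobase and 15 below 10. Receptors of the neuropilin family summed to 3151 to 4466 per kilobase over the 6 libraries and EphA receptors to 1723 to 2737, whereas the 3 Slit genes summed to 424.6 to 719.7 and the 4 Robo genes to 195.0 to 317.3.

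Ntn1 was several-fold higher in the libraries labelled knockout, Efnb2 and Efna5 were moderately higher, and Robo1, Robo2, Robo3, Epha3 and Sema3d were lower, in each case without overlap between the groups. None of these differences passed the threshold over all genes. The filter, 10 or more normalized counts in 3 or more libraries, was passed by 65 of the 67, all but Epha6 and Plxna4os3, and Dcc passed it only through the libraries labelled wild type, so that it had to differ. In limma on log2(value + 1), with Benjamini-Hochberg adjustment over 17034 genes, 0 of the 65 were called at an adjusted p under 0.05, as were 0% of all genes tested. At an unadjusted p under 0.05, 5 genes were higher (7.69%, against 6.92% of all genes) and 9 lower (13.8%, against 7.23%). All 3 knockout-labelled values lay above all 3 wild-type-labelled values in 7 genes (10.8%, against 12.8% of all genes) and below them in 12 (18.5%, against 10.8%). Dcc is among the 9 and the 12 lower genes, which number 8 and 11 without it. Of the 65, 44 (67.7%, against 48.2% of all genes) had a lower and 21 a higher fitted level, with a median log2 change of -0.15 against 0.01 over all genes. The summed mesenchyme list, of which Col3a1 was the largest part, did not overlap between groups. It held 376000 to 600600 normalized counts in libraries labelled wild type and 185400 to 282500 in those labelled knockout. Of its 10 genes, 7 had a lower and 3 a higher fitted level. At an unadjusted p under 0.05, 5 were lower and 1 was higher, Twist1 (log2 change 0.99, without overlap). All 10 genes of an epithelium list had a lower fitted level, 5 of them at an unadjusted p under 0.05, while its sum ranged from 9175 to 13590 and from 6119 to 16270. No gene of either list was at 0 in every library, and their part in the guidance genes was not tested.

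These counts moved with single libraries. Without library 1 labelled knockout, 2 genes were higher and 5 lower at an unadjusted p under 0.05, when 3.93% and 4.85% of all genes were. Without library 3 labelled knockout, 2 were higher (6.65% of all genes), and without library 2 labelled wild type 5 were lower (5.21% of all genes). Leaving out a library can only keep or add non-overlap for a gene still tested, so that rises in such counts were partly built in. The count of genes lying below all wild-type-labelled values went to 25 of 64 without library 3 labelled wild type, when 18.8% of all genes did so. It went to 20, and the count lying above to 11, without library 2 labelled knockout, when 18.1% and 19.6% of all genes did so. Library 3 labelled knockout and libraries 1 and 2 labelled wild type share the number Diff9 in their titles, which the labels do not explain. In limma voom on the recovered reads with a quality weight for each library, 3 guidance genes were called, Ntn1, Robo2 and Robo1. That fit called 0.998% of all genes higher and 0.781% lower. It weighted libraries 1 and 2 labelled wild type at 3.60 and 4.22 and library 3 at 0.206, and without weights voom called 0 guidance genes.

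**Figure D1:**
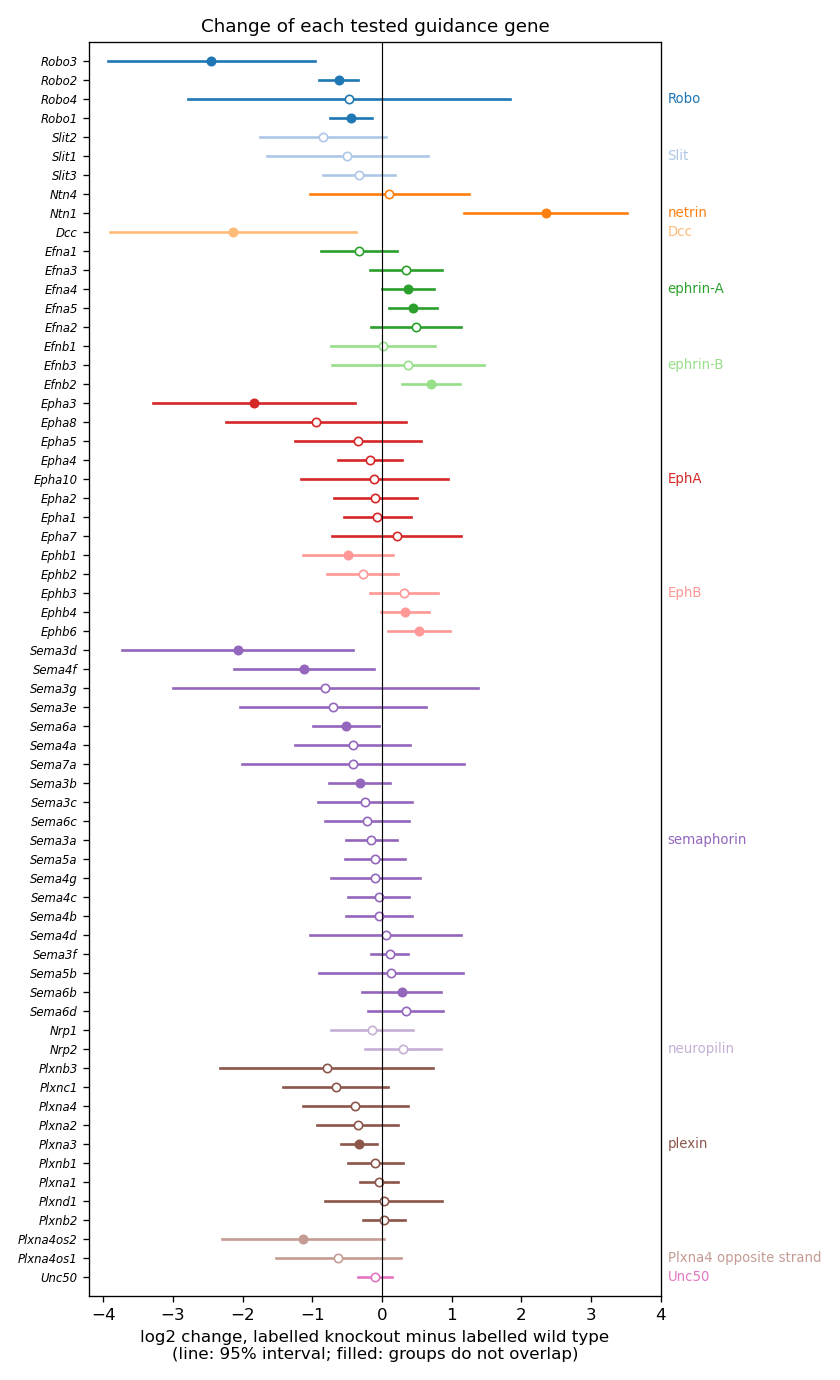
Fitted log2 change (labelled knockout minus labelled wild type) of the 65 tested genes on the horizontal axis, with 1 row per gene, coloured by family. Lines are 95% intervals from limma, and filled points mark the 19 genes whose groups did not overlap. Dcc is drawn among them, but it passed the filter only through the libraries labelled wild type, so that it had to differ. Ntn1 stands farthest to the right at 2.35 and Robo3 farthest to the left at -2.45, and most intervals cross 0.

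Slits are large secreted repellents, and Robo1 and Robo2 are their main receptors. Both receptor genes were lower in every library labelled knockout than in the wild-type-labelled ones, with little spread within each group. Robo2 (ENSMUSG00000052516; mm10 chromosome 16, 73891839 to 74411825, minus strand) stood at 3205, 3329 and 2632 normalized counts in libraries 1 to 3 labelled wild type and 1931, 1920 and 2084 in libraries 1 to 3 labelled knockout. Group means were thus 3055 ± 371 against 1978 ± 91.5 (SD, n = 3 each), for a log2 change of -0.62 (SE 0.12, 95% interval -0.90 to -0.35). Its adjusted p of 0.183 in limma was the lowest of all guidance genes. Robo1 (ENSMUSG00000022883; chromosome 16, 72308306 to 73046095, plus strand) lies 845743 bases from Robo2. Its values were 1824, 1719 and 1437 in libraries labelled wild type and 1306, 1252 and 1089 in those labelled knockout, which is a log2 change of -0.45 (SE 0.13; limma adjusted p = 0.257). With quality weights the changes were -0.71 for Robo2 (limma voom adjusted p = 0.0127) and -0.56 for Robo1 (limma voom adjusted p = 0.0398). That fit leaned on libraries 1 and 2 labelled wild type (weights 3.60 and 4.22, against 0.206 for library 3). Those 2 libraries were nearly alike over the guidance genes (median absolute log2 difference 0.06), yet every fit counts them as separate samples. Within the Diff9 libraries, library 3 labelled knockout against libraries 1 and 2 labelled wild type, the changes were -0.65 and -0.70. For genes without overlap the direction of this difference is fixed in advance.

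Robo3, the divergent family member that lets commissural axons cross the midline, was far less abundant and far more variable. Robo3 (ENSMUSG00000032128; chromosome 9, 37415669 to 37433246, minus strand) stood at 44.8, 24.1 and 143.7 normalized counts in libraries labelled wild type and 6.92, 8.04 and 13.3 in those labelled knockout, the last from 4, 9 and 18 reads. The groups did not overlap, and the log2 change was -2.45 (SE 0.64; limma adjusted p = 0.236). Without library 3 labelled wild type, the highest, it was -1.75 (limma adjusted p = 0.225). Robo4, the endothelial family member, lies 553 bases from Robo3. It showed another pattern: 61.4, 60.6 and 6.28 in libraries labelled wild type and 6.92, 25.9 and 48.1 in those labelled knockout, so that 1 library of each group was low and the groups overlapped. The sum of 10 endothelial markers, of which Kdr was the largest part in every library, was lowest in the same libraries. It was 3949 in library 3 labelled wild type and 8538 in library 1 labelled knockout, against 12710 to 15230 in the other 4. Emcn, unlike the other genes of that list, was higher in library 3 labelled wild type (80.1) than in libraries 2 and 3 labelled knockout (51.8 and 56.3). The part of these markers in the Robo4 values was not tested.

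The start regions of the 3 Robo genes that were lower without overlap are printed from RefSeq (GRCm38.p6), 250 bases before to 50 after a start, to show how differently they are built. Capitals mark TAAT on either strand (TAAT or ATTA), the core bound by many homeodomain proteins, the family of Shox2, and include TAATTA, in which both strands overlap. The windows are chr16:72662899-72663198 on the plus strand for Robo1, a start inside the annotated gene, chr16:74411776-74412075 on the minus strand for Robo2, which has 3 listed windows of which that at the annotated gene start is shown, and chr9:37433126-37433425 on the minus strand for Robo3.
Robo1: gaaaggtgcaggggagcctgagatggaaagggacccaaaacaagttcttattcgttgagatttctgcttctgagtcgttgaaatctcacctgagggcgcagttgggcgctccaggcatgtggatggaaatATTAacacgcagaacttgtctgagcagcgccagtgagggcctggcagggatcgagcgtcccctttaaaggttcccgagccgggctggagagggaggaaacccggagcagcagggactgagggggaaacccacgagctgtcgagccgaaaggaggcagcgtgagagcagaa
Robo2: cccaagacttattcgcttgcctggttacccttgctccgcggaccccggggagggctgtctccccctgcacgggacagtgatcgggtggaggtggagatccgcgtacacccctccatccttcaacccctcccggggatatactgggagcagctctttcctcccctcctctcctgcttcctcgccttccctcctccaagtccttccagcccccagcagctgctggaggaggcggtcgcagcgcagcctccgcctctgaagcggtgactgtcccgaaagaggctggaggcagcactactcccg
Robo3: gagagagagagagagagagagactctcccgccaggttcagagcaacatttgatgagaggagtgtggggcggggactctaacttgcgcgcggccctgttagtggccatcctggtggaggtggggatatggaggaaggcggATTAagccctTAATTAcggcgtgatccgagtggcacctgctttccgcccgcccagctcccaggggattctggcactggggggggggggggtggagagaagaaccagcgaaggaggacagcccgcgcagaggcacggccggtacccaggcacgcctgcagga
The Robo1 window held 1 core match, the printed Robo2 window 0 and the Robo3 window 3, with 1 TAATTA. The other 2 windows listed for Robo2 each held 1 core match. Matches to TAAT or ATTA occurred in 58.0% of 32851 windows of this length and matches to TAATTA in 5.29%. Windows were listed for 55 of the guidance genes, and 31 of their 71 windows (43.7%) held TAAT or ATTA and 3 (4.23%) TAATTA. A match describes the letters only.

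The Slit ligands varied more than Robo1 and Robo2. Slit2 had 2923, 3059 and 4412 normalized counts in libraries labelled wild type and 1031, 3150 and 2095 in those labelled knockout, and the groups overlapped through library 2 labelled knockout (log2 change -0.84, SE 0.38; limma adjusted p = 0.370). Slit3, the Slit gene with the highest level per kilobase (451.4), had 3562, 3606 and 2087 against 2284, 2697 and 2195 (log2 change -0.33, SE 0.22). Library 3 labelled wild type was the lowest of all 6 there. Slit1 stayed between 29.98 and 120.9, its highest value again in library 3 labelled wild type.

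**Figure D2:**
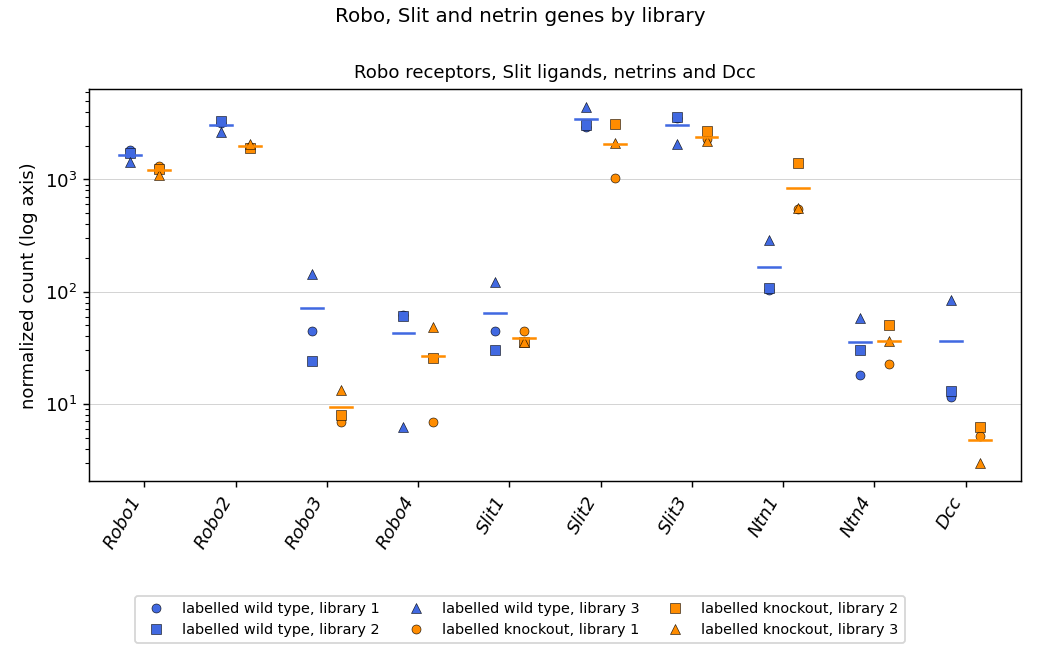
Normalized counts of Robo, Slit, netrin and Dcc genes in each library on a log axis, with blue symbols for libraries labelled wild type, orange symbols for those labelled knockout and bars for group means. Robo1 and Robo2 separate the groups with little spread, Ntn1 separates them upward, and library 3 labelled wild type (blue triangle) is high in Robo3, Slit1 and Dcc and low in Robo4.

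Netrin-1 is a secreted cue that attracts axons through Dcc and repels them through Unc5 receptors. Its gene had the largest positive change among the 65 tested guidance genes. Ntn1 (ENSMUSG00000020902; chromosome 11, 68209364 to 68400823, minus strand) stood at 102.9, 107.5 and 287.3 normalized counts in libraries labelled wild type and 548.4, 1400 and 558.5 in those labelled knockout. Every library labelled knockout lay above every library labelled wild type, with library 2 labelled knockout highest. Group means were thus 165.9 ± 105 against 835.5 ± 489 (SD, n = 3 each), for a 5.04-fold higher level (log2 change 2.35, SE 0.50, 95% interval 1.18 to 3.52). The difference missed the threshold in limma (adjusted p = 0.208) and passed it in limma voom with quality weights (log2 change 2.73, adjusted p = 0.0111). That fit weighted library 3 labelled wild type, the highest of its group, at only 0.206. Leaving out each library in turn gave log2 changes of 1.90 to 2.83, and the Diff9 libraries alone gave 2.40. Because the groups did not overlap, the direction of these changes was fixed in advance, and only their size was free. Ntn4, a laminin-binding netrin, stayed between 18.3 and 58.9 with overlapping groups (log2 change 0.11, SE 0.49).

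Dcc, the attractive netrin receptor, had few reads in these cells. It had 11.6, 13.0 and 84.0 normalized counts in libraries labelled wild type and 5.19, 6.26 and 2.96 in those labelled knockout, where 3, 7 and 4 reads stood behind the values. Because it passed the filter only through the libraries labelled wild type, no change is given, and without library 3 labelled wild type it did not pass. A list of 10 neural markers was also highest in that library, with a sum of 3158 against 417.0 to 679.9 in the other 5, and its part in the values of Dcc, Robo3 and Sema3d was not tested. Of the repulsive receptors, Unc5b and Unc5c were much more abundant. Unc5c had 16179, 16446 and 11973 normalized counts against 20959, 11747 and 16149, with overlapping groups. Unc5b, known from endothelial tip cells, had 7218, 6686 and 4995 against 9465, 6939 and 7562 (log2 change 0.35, SE 0.18; limma adjusted p = 0.407). Unc5a lay between 47.9 and 174.8, and Unc5d, between 8.15 and 41.5, in the range of Dcc. Neo1, the relative of Dcc that also binds netrin, was lower without overlap, at 7230, 6723 and 6783 against 5119, 4828 and 5577 (log2 change -0.42, SE 0.10; limma adjusted p = 0.225).

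Ephrins are ligands that stay on the cell and signal in both directions. Of the 8 ephrin genes, 7 had a higher fitted level in the libraries labelled knockout (48.2% of all genes had a lower one). With upper quartile scaling 6 were higher, and Efnb1 was at -0.01. Without overlap, 3 were higher (12.8% of all genes), and the family was not tested as a whole. Efnb2 (ENSMUSG00000001300; chromosome 8, 8617434 to 8661242, minus strand), the ephrin of arterial endothelium, had 1632, 1851 and 1384 normalized counts in libraries labelled wild type and 3298, 2541 and 2167 in those labelled knockout. Group means were thus 1622 ± 234 against 2669 ± 576 (SD, n = 3 each), for a log2 change of 0.71 (SE 0.18, 95% interval 0.29 to 1.13; limma adjusted p = 0.232). Within the Diff9 libraries the change was 0.32, its direction being fixed by the lack of overlap. Efna5, a lipid-anchored ligand of EphA receptors, had 409.9, 441.2 and 395.7 against 624.6, 478.2 and 608.1 (log2 change 0.45, SE 0.15; limma adjusted p = 0.287). Efna4 had 491.3, 415.8 and 355.6 against 600.4, 521.1 and 503.7 (log2 change 0.37, SE 0.16; limma adjusted p = 0.352). For Efna4 the nearest values of the groups, 503.7 and 491.3, were close. Efnb1, the ephrin gene with the highest level per kilobase, had 4441, 4446 and 1865 against 3232, 3325 and 3528, and the wild-type-labelled values lay on both sides of the others (log2 change 0.01, SE 0.32). Efnb3 was also low in library 3 labelled wild type alone, at 578.6 against 1748 and 1765 in libraries 1 and 2. Efna2 and Efna3 overlapped between groups, with log2 changes of 0.49 (SE 0.28) and 0.35 (SE 0.22), and Efna1 had a lower fitted level (log2 change -0.33, SE 0.23).

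Among the Eph receptors, 7 of 8 tested EphA genes had a lower and 3 of 5 EphB genes a higher fitted level (48.2% of all genes were lower). The classes were not tested against each other. Epha3 (ENSMUSG00000052504; chromosome 16, 63543534 to 63864175, minus strand), known for its part in the atrioventricular valves and atrial septum, had 1907, 1821 and 5872 normalized counts in libraries labelled wild type and 325.3, 1062 and 1293 in those labelled knockout. The groups did not overlap, with 1 high library on the wild-type side and 1 low library on the other. The log2 change was -1.84 (SE 0.62; limma adjusted p = 0.289), and without library 3 labelled wild type it was -1.28 (limma adjusted p = 0.333). The mesenchyme sum, of which Col3a1 was the largest part, was highest in the library where Epha3 was highest (600600) and lowest where it was lowest (185400). Pdgfra, Prrx1 and Twist1 of that list were instead highest where Epha3 was lowest (14844, 4561 and 4443 normalized counts). The other 7 of its 10 genes had a lower fitted level. The part of these markers in the Epha3 values was not tested. Epha4, the most abundant Eph receptor gene per kilobase, had 10904, 11062 and 12351 against 9052, 8245 and 13975, with overlapping groups. Epha7 ranged from 2534 to 7438 across all 6, and Epha1 and Epha2 differed between groups by log2 changes of -0.07 and -0.09. Epha5, Epha8 and Epha10 stayed under 45 in every library, and Epha6 under 15.

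Among EphB receptors, Ephb6, whose kinase domain is inactive, had 308.7, 326.5 and 212.0 normalized counts in libraries labelled wild type and 403.1, 383.4 and 423.7 in those labelled knockout (log2 change 0.54, SE 0.19; limma adjusted p = 0.301). Ephb4, the venous receptor of ephrin-B2, had 3089, 2954 and 2185 against 3683, 3207 and 3351 (log2 change 0.33, SE 0.15; limma adjusted p = 0.368). Both receptor genes and Efnb2 were thus higher without overlap. Ephb1 was low and lay on the other side, at 48.1, 45.0 and 46.3 against 36.3, 40.2 and 24.4 (log2 change -0.48, SE 0.28). Ephb2 and Ephb3 overlapped between groups, with log2 changes of -0.28 and 0.32.

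**Figure D3:**
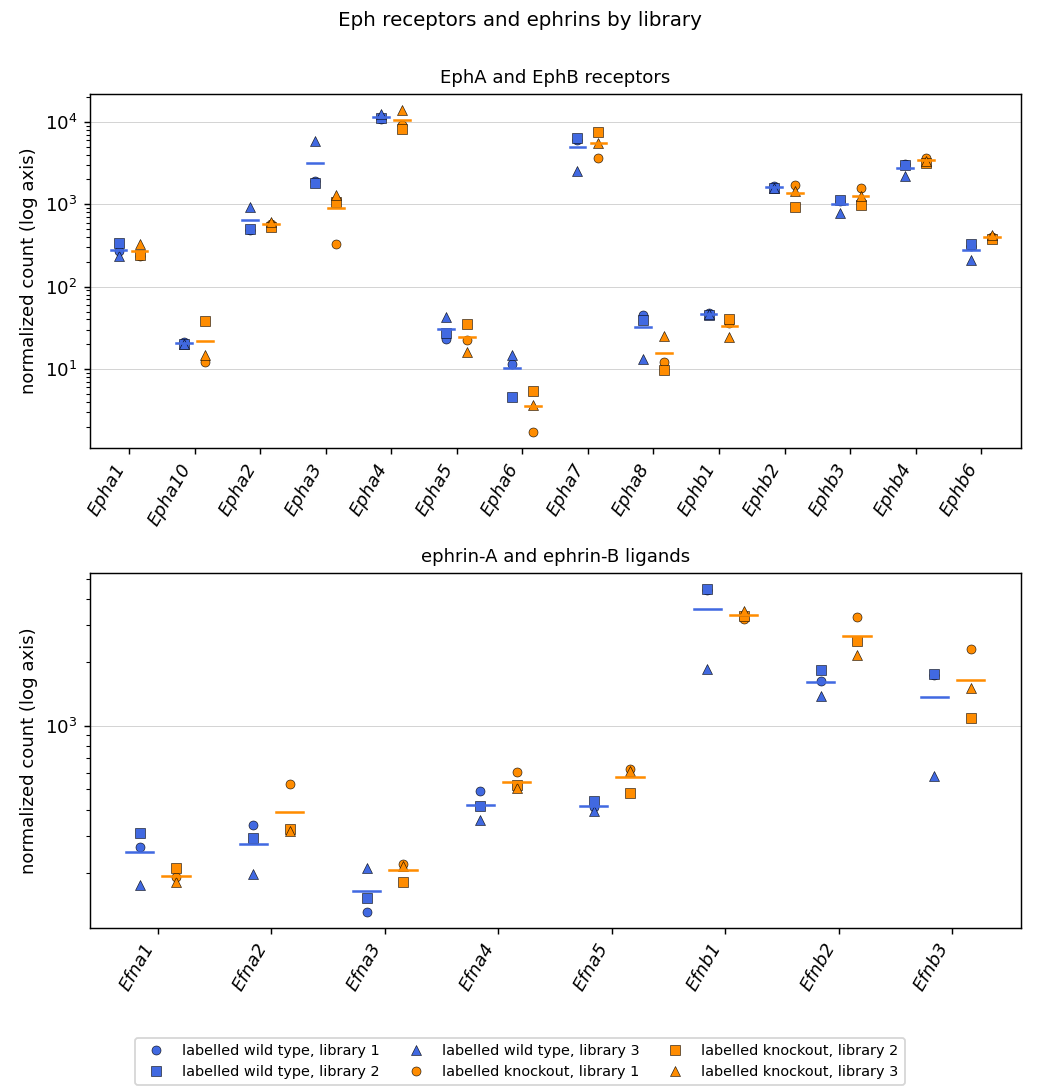
Normalized counts of Eph receptor genes (upper panel) and ephrin genes (lower panel) in each library on log axes, with symbols by library, colours by label and bars for group means. Epha3 lies lower and Efnb2, Efna5 and Ephb6 higher in all 3 libraries labelled knockout, and library 3 labelled wild type (blue triangle) is low in Efnb1 and Efnb3.

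Of the 20 semaphorin genes, which encode mostly repellent cues, 15 had a lower fitted level (48.2% of all genes did). Without overlap, 4 were lower and 1 higher (10.8% and 12.8% of all genes), and the family was not tested as a whole. Sema3d (ENSMUSG00000040254; chromosome 5, 12383385 to 12588948, plus strand), a secreted cue needed for the patterning of the pulmonary veins, had 79.7, 82.8 and 491.5 normalized counts in libraries labelled wild type and 34.6, 51.8 and 23.0 in those labelled knockout. The log2 change was -2.07 (SE 0.71; limma adjusted p = 0.293), and it was -1.21 without library 3 labelled wild type (limma adjusted p = 0.249). Sema3b had 157.7, 151.9 and 152.3 against 107.3, 147.5 and 118.5, a small difference without overlap (log2 change -0.32, SE 0.19). Sema3e, the ligand of Plxnd1, had 1323 in library 3 labelled wild type and between 272.4 and 297.6 in the other 5, so that its log2 change of -0.71 (SE 0.57) was 0.05 without that library. Sema3g, which endothelial cells make, was low in the same libraries as Robo4, at 94.6, 89.9 and 11.8 against 8.65, 37.5 and 54.1. Sema3a, the repellent that patterns cardiac sympathetic nerves, ranged from 1930 to 2929 with overlapping groups (log2 change -0.15, SE 0.15). Sema3c, needed in the outflow tract, and Sema3f had log2 changes of -0.24 and 0.11.

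Among the membrane-bound semaphorins, Sema6a, which binds plexin-A2 and plexin-A4, had 323.6, 347.4 and 473.4 normalized counts in libraries labelled wild type and 237.0, 315.5 and 242.2 in those labelled knockout (log2 change -0.52, SE 0.20; limma adjusted p = 0.325). Sema4f was near the filter, at 14.9, 13.7 and 18.1 against 10.4, 3.58 and 7.41, where the libraries labelled knockout held 4 to 10 reads (log2 change -1.12, SE 0.43; limma adjusted p = 0.323). Sema6b was the 1 semaphorin gene higher without overlap, at 39.8, 39.1 and 31.4 against 41.5, 45.6 and 47.4 (log2 change 0.28, SE 0.24). Sema4c, the semaphorin gene with the highest level per kilobase, had 1637, 1668 and 1313 against 1798, 1144 and 1585 and showed no separation (log2 change -0.05, SE 0.19). The other membrane-bound semaphorins overlapped between groups, with log2 changes from -0.42 (Sema4a) to 0.34 (Sema6d).

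Of the semaphorin receptors, 1 of 9 plexin genes and 0 of 2 neuropilin genes had an unadjusted p under 0.05 (6.92% of all genes higher and 7.23% lower). Plxna3 (ENSMUSG00000031398; chromosome X, 74329066 to 74344689, plus strand) was the 1 plexin gene of 9 without overlap, when 10.8% of all genes were lower and 12.8% higher without overlap. It stood at 879.7, 959.4 and 913.8 normalized counts in libraries labelled wild type and 780.3, 676.6 and 730.3 in those labelled knockout. Group means were thus 917.6 ± 40.0 against 729.1 ± 51.8 (SD, n = 3 each), for a log2 change of -0.33 (SE 0.11; limma adjusted p = 0.287). Leaving out each library in turn gave -0.38 to -0.28, the direction being fixed by the lack of overlap. Plxnb2, a receptor of Sema4c and the most abundant plexin gene per kilobase, had 9666, 9214 and 7382 against 9244, 8240 and 9109 (log2 change 0.03, 95% interval -0.28 to 0.33). Plxnc1, the receptor of Sema7a, was lower in library 1 labelled knockout (186.9) than in the other 5 (319.2 to 506.4). Plxnd1 was low in library 3 labelled wild type alone, at 326.6 against 583.7 to 857.7. Plxna1, Plxna2, Plxnb1 and Plxnb3 overlapped between groups, with log2 changes from -0.79 (Plxnb3, under 30 in every library) to -0.04 (Plxna1). Nrp1 had 36564, 37447 and 25598 against 21382, 38668 and 31589, and both its lowest and its highest value were in libraries labelled knockout (log2 change -0.14, SE 0.25). Nrp2, the neuropilin that prefers Sema3f, had 7208, 7564 and 6331 against 11718, 5962 and 9210 (log2 change 0.30, SE 0.23).

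**Figure D4:**
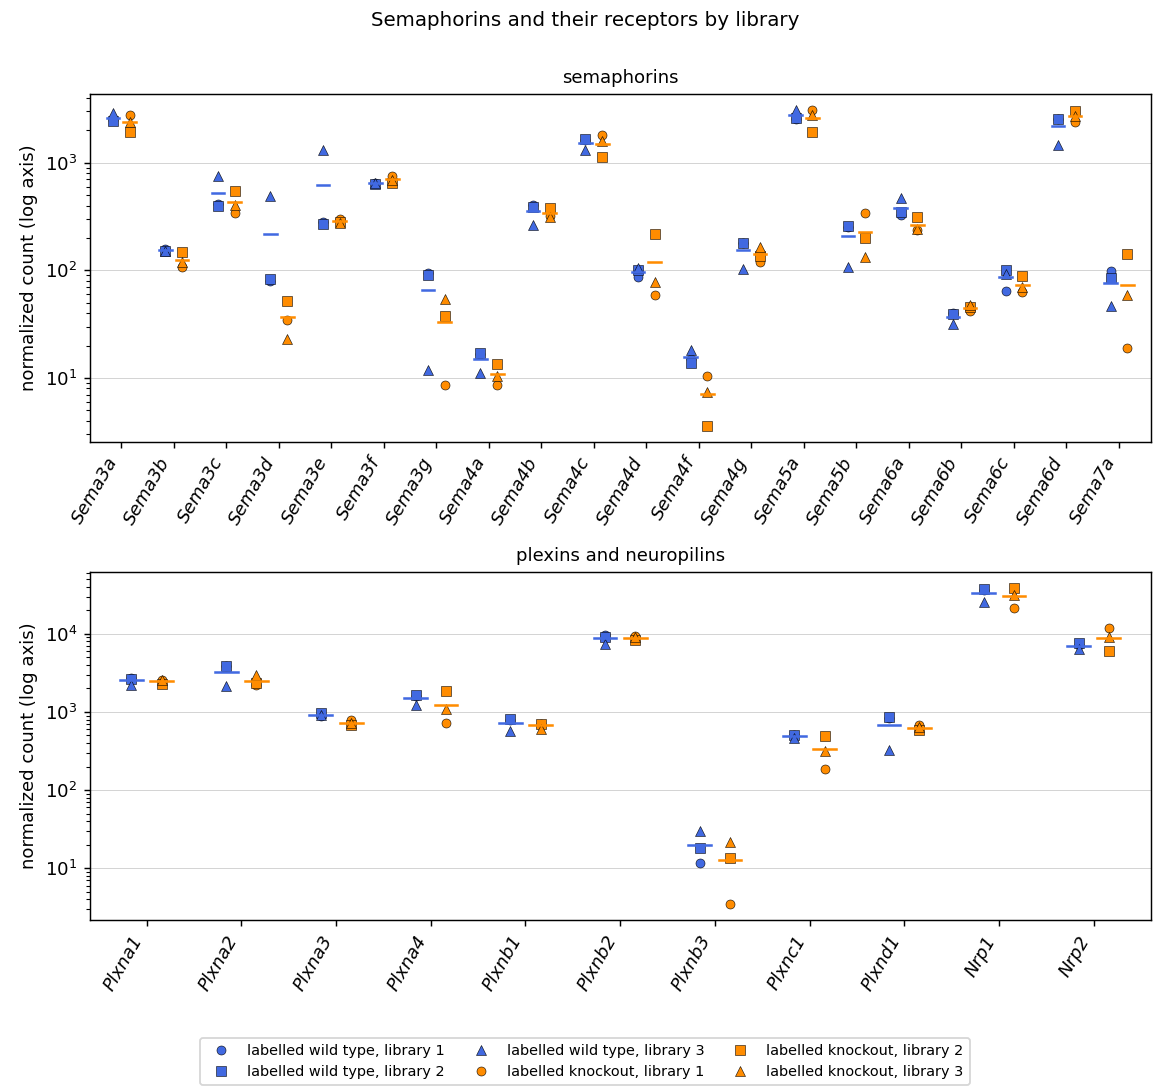
Normalized counts of semaphorin genes (upper panel) and of plexin and neuropilin genes (lower panel) in each library on log axes, with symbols by library, colours by label and bars for group means. Library 3 labelled wild type (blue triangle) stands above the rest in Sema3d and Sema3e and low in Sema3g, while Plxna1, Plxnb2 and Nrp1 overlap between the groups.

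The opposite-strand genes of Plxna4 had few reads. Plxna4os2 had 79.7, 82.8 and 54.2 normalized counts against 13.8, 51.0 and 45.2 (log2 change -1.13, SE 0.50; limma adjusted p = 0.359). Plxna4os1 stayed under 20 and Plxna4os3 under 6 in every library. Plxna4 itself overlapped between groups (log2 change -0.38, SE 0.32). Whether reads were counted by strand is not given in the sources used here, and 15 of the 67 genes share exon bases with another annotated gene, Efna4, Ephb1, Ephb4, Sema4c and Nrp1 for example. Unc50 had 1552, 1527 and 1763 against 1460, 1480 and 1579 (log2 change -0.10, SE 0.10).

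Genes that act with these ligands and receptors were read from 3 lists, 81 of whose 86 genes were tested. None was called in limma, and at an unadjusted p under 0.05, 8 were higher and 6 lower (6.92% and 7.23% of all genes). Of 48 tested intracellular transducers, the kinases, exchange factors and actin regulators behind the receptors, 35 had a higher and 13 a lower fitted level (48.2% of all genes were lower), with 7 higher and 1 lower at that threshold. Limk2, a kinase that phosphorylates cofilin, had the lowest p among them, at 4583, 4345 and 3502 normalized counts in libraries labelled wild type and 6517, 8291 and 5704 in those labelled knockout (log2 change 0.71, SE 0.17; limma adjusted p = 0.226). Evl, an actin-binding protein, had a log2 change of 0.53 (SE 0.15), Dpysl2, which carries semaphorin signals to microtubules, of 0.37 (SE 0.14), and Chn1, a Rac regulator downstream of Epha4, of 0.43 (SE 0.16), each without overlap. Of 20 tested other cues and receptors, 14 had a lower fitted level, 4 of them at that threshold, namely Neo1, Flrt1 (log2 change -1.02, SE 0.31), L1cam (-1.13, SE 0.39) and Ntng1 (-0.79, SE 0.30). Of 13 tested membrane proteases and co-receptors, Sdc1 was higher (0.34, SE 0.15) and Met, a receptor that associates with plexins, lower (-1.22, SE 0.44) at that threshold.

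Library 3 labelled wild type stood apart in the guidance genes. It differed more than 2-fold from the mean of libraries 1 and 2 in 16 of the 65 tested genes (24.6%), against 10.2% of all genes. It held the highest or the lowest value of the 6 libraries in 41 of the 65 (63.1%, against 52.2% of all genes). Libraries 1 and 2 labelled wild type were nearly alike, with a median absolute log2 difference of 0.06 over 51 guidance genes. In the other 14 pairs of libraries the median ranged from 0.22 to 0.68. Library 1 labelled knockout and library 3 labelled wild type formed the widest pair.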

How the data were processed

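RNA sequencing values of 6 libraries, 3 per labelled genotype, were analysed. The submitters' processing notes name build mm10 and the tools DESeq2 1.14.0, HTSeq, BWA and CASAVA 1.8.2 without saying what each did. The deposited values, recorded as a score because their unit is not stated, behave as gene read counts divided by 1 factor per library: low values were whole multiples of a step, and division by it gave whole reads for 100% of values within 0.1 reads. Library totals were 22414189 to 23844338 normalized and 13504683 to 34650564 in reads, and library 1 of each group, the shallowest, carries the larger counting error. Values were fitted as log2(value + 1), which understates changes of low genes, in R 4.3.3 with limma 3.58.1 (term for label, mean-variance trend, two-sided, Benjamini-Hochberg) over 17034 genes with at least 10 in at least 3 libraries. The script was tested on simulated data. Positions and exon lengths came from GENCODE M21 (GRCm38, the assembly also called mm10), which held all 67 genes and 30484 of 30631 IDs. Values were given by library for genes with an unadjusted p under 0.05, without overlap between groups, or with the lowest p or highest level per kilobase of a family, and for a few others chosen after their values were seen. Of each pathway list, up to 4 genes with the lowest p were named. Members and lists were chosen with earlier results of these data known. The planned test on whole counts was replaced by limma because the values are normalized. Alternatives were other scalings, filters, pseudocounts, voom on recovered reads, a Diff9 term, other readings of the member rule and leaving out each library.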

Additional observations from a re-analysis of the deposited data

How the results depend on the processing

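No alternative other than voom with quality weights called a guidance gene. That fit called 3 (Ntn1, Robo2 and Robo1) and found 5 higher and 17 lower at an unadjusted p under 0.05 (12.3% and 10% of all genes). Leaving out each library in turn gave 2 to 6 genes higher and 5 to 13 lower at an unadjusted p under 0.05 (3.93% to 8.86% and 4.85% to 8.34% of all genes), and 7 to 11 lying above and 11 to 25 lying below all wild-type-labelled values (15.6% to 23.2% and 13.1% to 18.8%). The median log2 change stayed between -0.28 and -0.09 in all alternatives. Of 411 log2 changes of 28 named genes under the alternatives, 395 kept their direction and side of the threshold, 3 newly passed it and 13 in 4 genes changed sign. This tally was partly built in. Of the 28 genes, 19 were without overlap, and leaving out a library cannot reverse the direction of such a gene. Most alternatives also called no gene at all, so that few changes could cross the threshold. Efnb1 (0.01) was -0.01 with upper quartile scaling, -0.36 with quality weights, and -0.40 to 0.22 without each library. Plxnb2 (0.03) was -0.073 with quality weights and -0.092 to 0.102 without each library. Sema4c (-0.05) was 0.009 with libraries 1 and 2 labelled wild type averaged, 0.033 with a Diff9 term and -0.18 to 0.14 without each library. Nrp1 (-0.14) was -0.33 to 0.10 without each library. The cause was not tested. Voom without weights and the restriction to the 63 ligand and receptor genes were chosen after seeing the data. The planned edgeR test on recovered reads was not run. No paired analysis was possible because the titles of the groups share only 1 number, Diff9. Depth limits Dcc, Robo3 and Sema4f, whose values in the libraries labelled knockout rest on 3 to 18 reads. It also limits other low genes, for example Plxnb3, Robo4 and Sema3g, with 2, 4 and 5 reads in library 1 labelled knockout.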
